A study of Rattus norvegicus with 10 samples.

Results

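Mitochondrial ribosomal proteins are nuclear-encoded proteins that build the ribosome inside mitochondria. Their transcripts were measured in the hearts of Old and Young male rats. Genes were taken where the platform's only symbol for a probe set began with Mrpl or Mrps followed by a digit. This gave 73 genes, 46 named for the large subunit (Mrpl) and 27 for the small subunit (Mrps), of the 14217 named genes in the table. They were read by 97 probe sets, short oligonucleotide sets that each report 1 transcript, and the value of a gene is the mean of its probe sets. The animals were males of the inbred Fischer-344 strain, kept on standard chow with no other treatment labelled: 5 Old samples at 24 months (replicates 2, 3, 4, 5 and 6) and 5 Young samples at 6 months (replicates 1, 2, 3, 4 and 6). RNA was hybridised to Rat Genome 230 2.0 arrays, 1 sample an array. Protocols in the labels name whole hearts and the series text names ventricles. The series set out to profile transcripts of mitochondrial energy metabolism in adult and aged hearts.

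The mitochondrial ribosome translates the few proteins that mitochondrial DNA encodes, all of them parts of the respiratory chain and ATP synthase. Its RNA comes from mitochondrial DNA, and its proteins are made in the cytosol and imported. A part of these proteins has bacterial counterparts and others are found only in mitochondrial ribosomes. The heart depends on oxidative phosphorylation for contraction and is rich in mitochondria. In bulk tissue, fewer cells of a type and less RNA per cell cannot be told apart.

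Most of these transcripts had lower means in Old hearts, by small amounts. By limma, 15 of the 73 genes fell in Old hearts (20.5%), against a background of 5.09% of all 14217 genes, and 58 did not pass the test. No gene rose: 0 of 73 passed upward, against a background of 6.77%. At an unadjusted limma p under 0.05, 3 were higher (background 14.3%) and 27 were lower (background 12.0%). The median log2 difference, Old minus Young, was -0.11, or -7.46%, against -0.005 over all genes, and 56 of the 73 (76.7%) had a lower mean in Old hearts, against 51.8% of all genes. In 10 genes every Old array lay below every Young array (background 4.78%). A gene is called risen or fallen where its p, adjusted over all genes tested, was under 0.05. Values are on a log2 scale (base inferred), each relative to the gene's probe set medians over the 10 arrays, so a positive value is above that median and no absolute level is known.

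**Figure D1:**
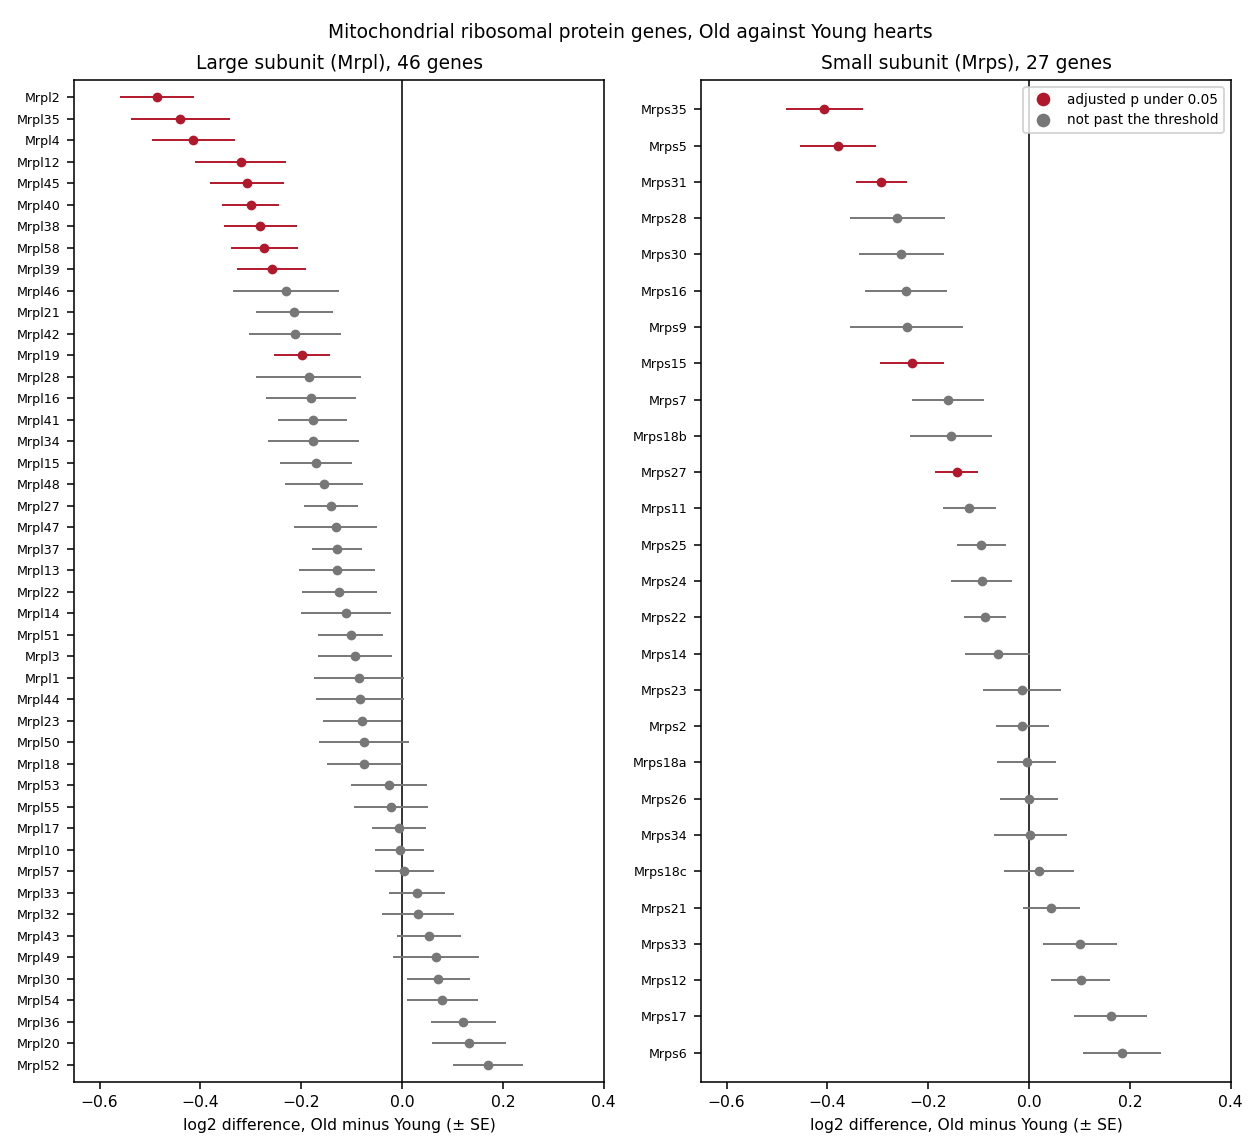
Log2 difference, Old minus Young, with its SE for each of the 46 Mrpl genes (left panel) and 27 Mrps genes (right panel), in order of size. Red points passed at an adjusted p under 0.05. All 15 red points lie left of 0, and the points right of 0 did not pass.

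Promoter sequences are shown for 5 genes that fell (Mrpl2, Mrps31, Mrpl40, Mrps5 and Mrpl4) and the 2 with the highest differences (Mrps6 and Mrpl52), neither of which passed. The 5 had the lowest adjusted p among genes that fell and had a promoter sequence. Mrpl2 had the deepest difference of the 73 genes. Mrpl12 (-0.32) and Mrpl45 (-0.31), not shown, had deeper differences than Mrpl40 (-0.30) and Mrps31 (-0.29). Of the sequences of fallen genes not shown, those of Mrpl12, Mrpl58, Mrps15 and Mrps27 held a motif match, and those of Mrpl39 and Mrpl45 held none. Each window holds 250 bases before and 50 after the annotated start of the gene, 5′ to 3′ on the strand of the gene, from RefSeq on build GRCr8. Capitals mark matches to the motifs searched on both strands, which were CCGGAAG of the ETS family, GCGCATGC of NRF-1, AAGATGG of YY1, the CCAAT box CCAAT, the GC box GGGCGG and the nuclear receptor motif AAGGTCA. A match on the other strand appears as its reverse complement.
Mrpl2 chr9:21834558-21834857 minus strand: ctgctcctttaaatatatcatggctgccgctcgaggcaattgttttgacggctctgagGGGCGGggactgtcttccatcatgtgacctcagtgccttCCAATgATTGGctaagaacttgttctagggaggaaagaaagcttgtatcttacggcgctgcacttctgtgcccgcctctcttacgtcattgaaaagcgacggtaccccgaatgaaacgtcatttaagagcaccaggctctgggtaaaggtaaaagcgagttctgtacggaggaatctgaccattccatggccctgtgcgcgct
Mrps31 chr16:76324016-76324315 minus strand: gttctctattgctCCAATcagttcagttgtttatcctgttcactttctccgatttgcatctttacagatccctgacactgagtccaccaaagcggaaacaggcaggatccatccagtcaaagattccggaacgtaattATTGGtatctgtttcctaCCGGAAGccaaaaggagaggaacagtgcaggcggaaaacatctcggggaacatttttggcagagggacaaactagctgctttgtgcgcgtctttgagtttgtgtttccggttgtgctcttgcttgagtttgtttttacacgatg
Mrpl40 chr11:95637501-95637800 plus strand: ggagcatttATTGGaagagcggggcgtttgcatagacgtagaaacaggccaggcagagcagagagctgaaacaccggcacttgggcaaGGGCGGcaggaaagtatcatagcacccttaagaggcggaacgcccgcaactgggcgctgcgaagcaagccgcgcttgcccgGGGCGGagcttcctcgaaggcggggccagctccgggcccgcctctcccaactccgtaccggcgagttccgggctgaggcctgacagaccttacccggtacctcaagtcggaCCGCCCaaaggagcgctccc
Mrps5 chr3:135274083-135274382 plus strand: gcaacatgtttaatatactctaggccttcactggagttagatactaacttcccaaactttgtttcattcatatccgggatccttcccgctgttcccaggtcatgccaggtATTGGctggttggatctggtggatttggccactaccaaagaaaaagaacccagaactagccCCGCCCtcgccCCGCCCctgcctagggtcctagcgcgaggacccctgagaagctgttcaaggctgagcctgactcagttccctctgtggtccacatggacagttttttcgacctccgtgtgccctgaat
Mrpl4 chr8:27815521-27815820 plus strand: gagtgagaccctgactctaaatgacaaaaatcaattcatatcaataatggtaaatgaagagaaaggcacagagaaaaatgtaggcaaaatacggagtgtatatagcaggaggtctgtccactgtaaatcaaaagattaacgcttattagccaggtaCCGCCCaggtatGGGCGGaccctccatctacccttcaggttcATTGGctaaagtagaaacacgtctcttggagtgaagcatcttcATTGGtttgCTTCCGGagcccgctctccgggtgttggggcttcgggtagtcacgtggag
Mrps6 chr11:44778417-44778716 plus strand: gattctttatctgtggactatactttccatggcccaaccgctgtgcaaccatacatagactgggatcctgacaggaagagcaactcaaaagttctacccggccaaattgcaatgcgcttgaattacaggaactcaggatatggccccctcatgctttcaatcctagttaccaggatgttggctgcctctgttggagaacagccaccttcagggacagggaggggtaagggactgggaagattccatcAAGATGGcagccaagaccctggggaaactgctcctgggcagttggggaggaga
Mrpl52 chr15:31852686-31852985 plus strand: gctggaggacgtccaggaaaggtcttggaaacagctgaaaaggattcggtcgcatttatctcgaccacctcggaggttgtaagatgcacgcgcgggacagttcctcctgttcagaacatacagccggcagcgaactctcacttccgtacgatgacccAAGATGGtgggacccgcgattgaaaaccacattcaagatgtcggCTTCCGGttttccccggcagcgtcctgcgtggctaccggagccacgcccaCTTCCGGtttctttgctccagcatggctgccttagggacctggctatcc

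Mrps31 and Mrpl4 hold an ETS match, and Mrpl52 holds a pair of them beside a YY1 match. Mrps6 has a single match, to YY1, at 3 bases before its start. A window was given for 59 of the 73 genes, and 20 of these held the ETS motif (33.9%), against 15.1% of the windows of 11700 measured genes and 9.22% of all 27457 windows. Matches to YY1 stood in 25.4% of the 59, against 7.84% of measured genes, and to NRF-1 in 8.47%, against 4.29%. The CCAAT box was in 44.1% against 37.3%, the GC box in 50.8% against 57.5% and the nuclear receptor motif in 5.08% against 3.15%. Of the 11 windows of genes that fell, 4 held ETS, 1 YY1, 0 NRF-1, 7 CCAAT, 6 the GC box and 1 the nuclear receptor motif. Of the 48 windows of genes that did not pass, 16 held ETS, 14 YY1, 5 NRF-1, 19 CCAAT, 24 the GC box and 2 the nuclear receptor motif. These are matches of letters, and binding was not measured.

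Genes of both subunits fell. Of the 46 Mrpl genes 10 fell (21.7%) and 36 had lower means in Old hearts, with a median difference of -0.13. Of the 27 Mrps genes 5 fell (18.5%) and 20 had lower means, with a median of -0.09. The count of Mrpl genes was 16 without Old replicate 2, 5 without Young replicate 2 and 6 without Young replicate 3. In these settings 6.61%, 3.19% and 3.02% of all genes fell, against 5.09% on all arrays. The count of Mrps genes was 3 without Old replicate 3, 4, 5 or 6 or Young replicate 2, 3 or 6, where 2.86% to 4.68% of all genes fell. Mean values per array of the Mrpl genes minus those of the Mrps genes were 0.04, -0.02, -0.04, -0.0075 and -0.02 in Old hearts, against 0.03, 0.05, 0.0032, -0.01 and 0.0053 in Young hearts. The groups overlapped, and the difference between them, -0.02, was smaller than the SD of either (0.03 in Old hearts and 0.03 in Young hearts). Mrps18a and Mrps30 sit in the large subunit despite their names. Counted by that structure, 10 of 48 large-subunit and 5 of 25 small-subunit genes fell. Among large-subunit genes with a bacterial counterpart 5 of 27 fell (median -0.12), and among those listed as mitochondria-specific 5 of 21 did (-0.13). For the small subunit these counts were 2 of 15 (-0.09) and 3 of 10 (-0.09). Mrps18a and Mrps18b were listed as mitochondria-specific here, though they descend from a bacterial protein, and neither fell.

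Large-subunit genes with a bacterial counterpart that fell were Mrpl2, Mrpl4, Mrpl12, Mrpl19 and Mrpl35. Values are listed in the order of the replicate numbers given above. Mrpl2 encodes a core protein next to the site of peptide bond formation. Mrpl2 measured -0.05, -0.41, -0.24, -0.23 and -0.33 in Old hearts, against 0.29, 0.29, 0.22, 0.05 and 0.32 in Young hearts. All Old arrays were below all Young arrays, and the gene was 1.40-fold lower (-0.49 ± 0.07 SE, adjusted p = 0.00241, n = 5 per age). Mrpl4 lines the tunnel through which the new peptide leaves. Mrpl4 measured -0.10, -0.50, -0.15, -0.18 and -0.20 in Old hearts, against 0.11, 0.41, 0.21, 0.10 and 0.13 in Young hearts. Old replicate 3 was the lowest, no values overlapped, and the difference was -0.41 ± 0.08 SE, adjusted p = 0.00802. Mrpl35 is a small core protein. Mrpl35 measured 0.04, -0.42, -0.19, -0.38 and -0.44 in Old hearts, against 0.23, 0.29, 0.28, -0.01 and 0.01 in Young hearts. Old replicate 2 lay above the Young replicates 4 and 6, so the groups overlapped, with a difference of -0.44 ± 0.10 SE, adjusted p = 0.0134. Mrpl12 forms the flexible stalk that recruits translation factors. Mrpl12 measured 0.06, -0.44, -0.12, -0.20 and -0.43 in Old hearts, against 0.17, 0.12, 0.15, -0.04 and 0.07 in Young hearts. Old replicate 2 overlapped the Young range (-0.32 ± 0.09 SE, adjusted p = 0.0378), and the 2 probe sets of Mrpl12 gave -0.26 and -0.38. The first did not pass singly (limma adjusted p = 0.0989), and the second did (0.0458). Without Old replicates 3 and 6 together the difference of Mrpl12 was -0.18 (adjusted p = 0.167). Mrpl19 lies at the interface between the subunits. Mrpl19 measured -0.04, -0.25, -0.0095, -0.10 and -0.14 in Old hearts, against 0.15, 0.07, 0.16, 0.07 and 0.0095 in Young hearts. There was no overlap, and the difference was -0.20 ± 0.05 SE, adjusted p = 0.0348. The call of Mrpl12 was lost without Old replicate 3, 5 or 6 or Young replicate 1, 2, 3 or 6 (adjusted p = 0.0647 to 0.0894), and that of Mrpl19 without Old replicate 3, 5 or 6 or Young replicate 1, 2, 3 or 4 (0.0557 to 0.0896).

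Large-subunit genes found only in mitochondrial ribosomes that fell were Mrpl38, Mrpl39, Mrpl40, Mrpl45 and Mrpl58. Mrpl38 and Mrpl40 belong to the central protuberance of the large subunit. Mrpl40 measured -0.10, -0.32, -0.08, -0.15 and -0.21 in Old hearts, against 0.25, 0.11, 0.14, 0.07 and 0.07 in Young hearts. All Old values were below 0 and all Young values above it (-0.30 ± 0.06 SE, adjusted p = 0.00656). Its probe sets differed in size, at -0.46 and -0.15, and the second did not pass singly (adjusted p = 0.187). Mrpl38 measured -0.05, -0.07, -0.28, -0.04 and -0.0059 in Old hearts, against 0.20, 0.37, 0.15, 0.0059 and 0.22 in Young hearts. Old replicate 4 was the lowest and the groups did not overlap (-0.28 ± 0.07 SE, adjusted p = 0.0258). Mrpl45 lies by the exit of the peptide tunnel and helps hold the ribosome to the inner membrane. Mrpl45 measured 0.02, -0.42, -0.34, -0.31 and -0.30 in Old hearts, against 0.04, 0.11, 0.04, -0.02 and 0.03 in Young hearts. The other Old arrays were below all Young arrays, but Old replicate 2 lay within the Young range (-0.31 ± 0.07 SE, adjusted p = 0.0185). Mrpl58 is a peptidyl-tRNA hydrolase that frees stalled ribosomes and is also a part of the large subunit. Mrpl58 measured 0.01, -0.25, -0.12, -0.07 and -0.28 in Old hearts, against 0.18, 0.22, 0.10, -0.01 and 0.16 in Young hearts. Old replicate 2 lay above Young replicate 4, and the other Old arrays lay below all Young arrays (-0.27 ± 0.07 SE, adjusted p = 0.0201). Mrpl39 resembles part of a tRNA synthetase. Mrpl39 measured -0.03, -0.32, -0.17, -0.09 and -0.03 in Old hearts, against 0.19, 0.28, 0.06, 0.08 and 0.03 in Young hearts. Its groups did not overlap (-0.26 ± 0.07 SE, adjusted p = 0.0291). Calls were lost for Mrpl38 without Young replicate 2, 3 or 6 (adjusted p = 0.0514 to 0.0612), for Mrpl39 without Old replicate 4 or 5 or Young replicate 1, 2 or 3 (up to 0.0722) and for Mrpl58 without Young replicate 2 (0.0534).

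Small-subunit genes that fell were Mrps5 and Mrps15, with bacterial counterparts, and Mrps27, Mrps31 and Mrps35, found only in mitochondria. Mrps5 encodes a core protein of the small subunit. Mrps5 measured -0.04, -0.48, -0.32, -0.26 and -0.15 in Old hearts, against 0.17, 0.08, 0.19, 0.04 and 0.15 in Young hearts. The groups did not overlap (-0.38 ± 0.08 SE, adjusted p = 0.00788). Mrps35 is a mitochondria-specific protein of the small subunit. Mrps35 measured -0.02, -0.48, -0.30, -0.28 and -0.34 in Old hearts, against 0.26, 0.07, 0.14, 0.02 and 0.11 in Young hearts. Old replicate 2 was the nearest to the Young arrays, yet lay below all of them (-0.41 ± 0.08 SE, adjusted p = 0.00635). Mrps31 is another. Mrps31 measured -0.06, -0.18, -0.17, -0.20 and -0.14 in Old hearts, against 0.15, 0.26, 0.06, 0.18 and 0.07 in Young hearts. Old values lay close together, all below the Young values (-0.29 ± 0.05 SE, adjusted p = 0.00476). Mrps15 binds the small ribosomal RNA. Mrps15 measured 0.01, -0.24, -0.16, -0.18 and -0.30 in Old hearts, against -0.03, 0.11, 0.14, -0.04 and 0.12 in Young hearts. Old replicate 2 lay within the Young range (-0.23 ± 0.06 SE, adjusted p = 0.0336). Its probe sets gave -0.38 and -0.08, and the second did not pass (adjusted p = 0.517). Mrps27 is an RNA-binding protein of the pentatricopeptide repeat family. Mrps27 measured -0.05, -0.13, -0.05, -0.07 and -0.16 in Old hearts, against 0.05, 0.01, 0.04, 0.07 and 0.07 in Young hearts. It had the smallest fall of the 15 and the largest adjusted p (-0.14 ± 0.04 SE, adjusted p = 0.0455), and of its 3 probe sets (-0.20, -0.08 and -0.15) 0 passed singly. The call of Mrps15 was lost without Old replicate 3, 4, 5 or 6 or Young replicate 2, 3 or 6 (adjusted p = 0.0561 to 0.0870). That of Mrps27 was lost without any array other than Old replicate 2 (0.0554 to 0.118), and under 8 of the other settings (adjusted p = 0.0511 with dim probe sets left out, 0.0532 with quantile normalization, 0.0544 with arrays centred, 0.0717 by the probe set of largest variance, 0.0918 by the median of probe sets, 0.124 on the 8 arrays with shared replicate numbers, 0.202 with those numbers as a block and 0.222 without Old replicates 3 and 6).

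**Figure D2:**
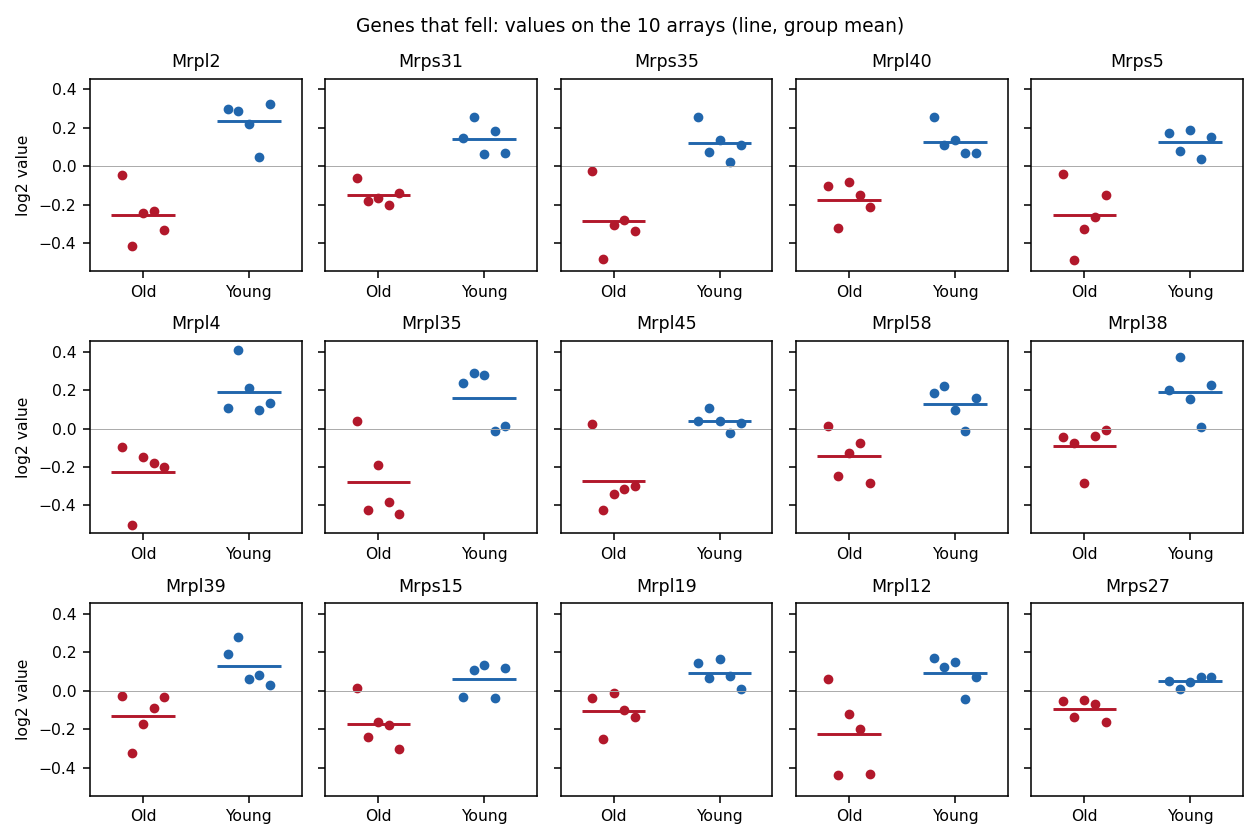
Log2 values, relative to the median of the 10 arrays, of the 15 genes that fell, in order of adjusted p. Each point is an array, Old left (red) and Young right (blue), and lines are group means. In 10 panels all Old points lie below all Young points, as in Mrpl2, Mrps31 and Mrps35, and in Mrpl35, Mrpl45, Mrpl58, Mrps15 and Mrpl12 an Old array lies within the Young range.

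Of the 58 genes that did not pass, 41 had a lower and 17 a higher mean in Old hearts. The deepest difference among them was that of the small-subunit gene Mrps28 (-0.26 ± 0.10 SE, adjusted p = 0.0969), chosen after its value was seen. Mrps27 was just inside the threshold, and Mrps30 (-0.25 ± 0.08 SE, adjusted p = 0.0706), Mrps16 (-0.24 ± 0.08 SE, adjusted p = 0.0729) and Mrpl21 (-0.21 ± 0.08 SE, adjusted p = 0.0905) were just outside. Mrps30 measured -0.08, -0.47, 0.0079, -0.08 and -0.12 in Old hearts, against 0.23, -0.0079, 0.17, 0.08 and 0.06 in Young hearts. Old replicate 3 was far below the rest there. Mrps18a, Mrps18b and Mrps18c descend from the same bacterial protein and have different places in the ribosome. Their differences were -0.0047 ± 0.06 SE, adjusted p = 0.970, -0.16 ± 0.08 SE, adjusted p = 0.250 and 0.02 ± 0.07 SE, adjusted p = 0.895, and none passed. Mrpl10, which carries the Mrpl12 stalk, gave -0.0045 ± 0.05 SE, adjusted p = 0.966, with probe sets at -0.12 and 0.11, while Mrpl12 fell. The difference between those genes was not tested.

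The highest differences were those of Mrps6, Mrpl52, Mrps17, Mrpl20 and Mrpl36, and none passed the test. Mrps6 and Mrps17 are small-subunit proteins with bacterial counterparts. Mrps6 measured 0.20, -0.09, 0.01, 0.17 and 0.09 in Old hearts, against 0.09, -0.18, -0.16, -0.27 and -0.01 in Young hearts. The groups overlapped (0.18 ± 0.08 SE, adjusted p = 0.146). Mrps17 measured 0.15, -0.02, 0.14, 0.03 and 0.02 in Old hearts, against 0.16, -0.13, -0.08, -0.26 and -0.17 in Young hearts. They overlapped here too (0.16 ± 0.07 SE, adjusted p = 0.182). Mrpl52 is a mitochondria-specific protein of the large subunit, whose probe sets gave 0.15 and 0.19. Mrpl52 measured 0.11, 0.13, -0.05, 0.17 and 0.04 in Old hearts, against 0.06, 0.03, -0.17, -0.27 and -0.10 in Young hearts. Old replicates 4 and 6 lay among the Young values (0.17 ± 0.07 SE, adjusted p = 0.137). Mrpl20 (0.13 ± 0.07 SE, adjusted p = 0.285) and Mrpl36 (0.12 ± 0.06 SE, adjusted p = 0.261), both core proteins of the large subunit, were closer to 0. Without Young replicate 1, Mrps17 (0.23, adjusted p = 0.0297) and Mrpl36 (0.18, with an adjusted p just under the threshold) passed as higher. The other 12 genes with a higher Old mean had smaller differences.

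Several probe sets were present for 18 of the 73 genes, and in 9 of these they differed in sign. The disagreement ranged from Mrpl57 (-0.0065 and 0.02) to Mrps22 (-0.24 and 0.07), and in Mrpl10 (-0.12 and 0.11) each was about as large as the median difference of the 73 genes. In a limma fit of all 31042 probe sets, 14 of the 97 passed as lower (background 3.60%) and 0 as higher (background 4.42%). In Mrps22, a mitochondria-specific small-subunit gene chosen after its values were seen, 1 probe set fell (-0.24, adjusted p = 0.00920) and the other gave 0.07 (adjusted p = 0.569), so that the gene as a whole did not pass (-0.09, adjusted p = 0.198). By the size of the smallest numerical step, from which an approximate class of the level before centring was inferred, 57 of the 73 genes (78.1%) had a probe set in the brightest of 3 classes, against 19.4% of all genes. All 6 cardiomyocyte markers measured were in that class as well.

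The 73 genes varied together across arrays. Their mean per array was 0.08, -0.21, -0.08, -0.05 and -0.09 in Old hearts, against 0.13, 0.06, 0.04, -0.07 and 0.05 in Young hearts. Old replicate 3 was the lowest and Old replicate 2 lay above 4 of the Young arrays, while Young replicate 4 was lower than Old replicate 5. The group means were -0.07 ± 0.10 in Old hearts and 0.04 ± 0.07 in Young hearts (SD, n = 5 each), and the ranges overlapped. Old replicate 3 held the lowest of the 10 values in 38 genes, and Old replicate 2 the highest Old value in 57. Young replicate 4 had the lowest Young value in 53, and Young replicate 1 was above 0 in 72. The mean Pearson correlation between pairs of these genes was 0.51 within an age (0.57 for Mrpl pairs and 0.41 for Mrps pairs, over the 10 arrays centred by age), against 0.0039 over all gene pairs. Pairs of the 41 cytosolic ribosomal protein genes, described below, had a similar mean of 0.48, so such correlation was not particular to the mitochondrial genes. These correlations share the same arrays and describe them alone. Single arrays moved the number that fell, which was 23 without Old replicate 2, 8 without Young replicate 2 and 9 without Young replicate 3. The share of all genes that fell moved the same way, to 6.61%, 3.19% and 3.02%, against 5.09% on all arrays. The 8 genes called whichever array was left out were Mrpl2, Mrpl4, Mrpl35, Mrpl40, Mrpl45, Mrps5, Mrps31 and Mrps35. With quantile normalization 51 of the 73 had lower means in Old hearts, and with arrays centred on their medians 53 did.

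**Figure D3:**
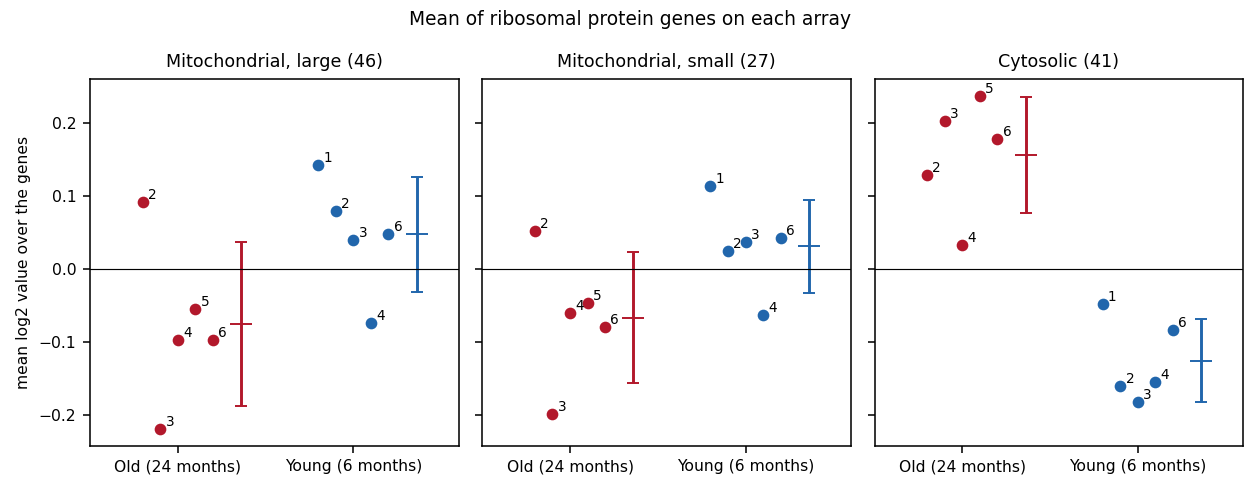
Mean log2 value per array over the 46 Mrpl genes, the 27 Mrps genes and the 41 cytosolic ribosomal protein genes, with Old arrays (red) left of Young arrays (blue). Numbers are replicates, and bars show the group mean ± SD. The mitochondrial means overlap between the ages, with Old 3 the lowest, and the cytosolic means do not overlap.

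Proteins of the cytosolic ribosome, which translates nuclear-encoded messages, mostly had higher transcript levels in Old hearts. Of 41 genes with symbols of the Rpl and Rps families, 33 rose in Old hearts (80.5%, background 6.77%), 0 fell (0 also at an unadjusted limma p under 0.05) and 8 did not pass. Their median difference was 0.28, or 21.7%, against -0.11 in the mitochondrial genes. Rpl3, a core protein of the large cytosolic subunit, rose by 0.62 (± 0.08 SE, adjusted p = 0.00131), and Rps16, of the small subunit, by 0.40 (± 0.06 SE, adjusted p = 0.00166), both chosen after their values were seen. Mean values per array were 0.13, 0.20, 0.03, 0.24 and 0.18 in Old hearts, against -0.05, -0.16, -0.18, -0.15 and -0.08 in Young hearts, without overlap. The rise was counted in 33 genes with quantile normalization or centred arrays as well, and in 21 without Old replicates 3 and 6 together. Cytosolic ribosomal protein genes have many near-identical pseudogenes, and the effect of these on the probe sets was not tested. The lists as wholes were compared by counts and medians alone.

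**Figure D4:**
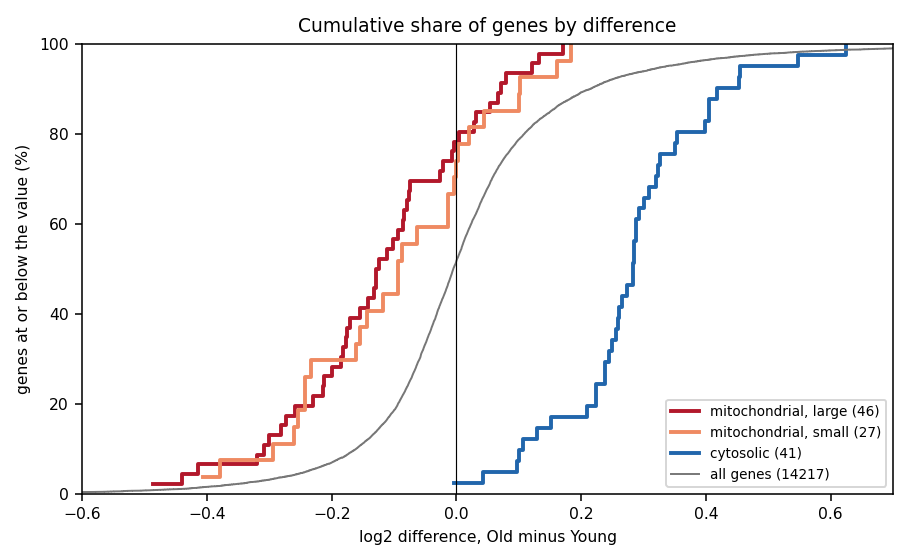
Cumulative share of genes (%) by log2 difference, Old minus Young, for 46 Mrpl genes, 27 Mrps genes, 41 cytosolic ribosomal protein genes and all 14217 genes. Both mitochondrial curves lie left of the curve of all genes over most of their range, with medians of -0.13 and -0.09, and the cytosolic curve lies right of it, with a median of 0.28.

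Genes that assemble the mitochondrial ribosome or work with it had mostly lower means too, beside 51.8% of all genes with a lower mean in Old hearts and 5.09% that fell. Of 5 ribosomal proteins with other symbols, Ptcd3, a small-subunit protein, fell (-0.27 ± 0.08 SE, adjusted p = 0.0414). Of 25 genes of ribosome assembly and rRNA maturation, 3 fell, 0 rose and 22 had lower means (median -0.07). They were the GTPase gene Mtg2 (-0.19 ± 0.05 SE, adjusted p = 0.0269), Mettl17 (-0.21 ± 0.05 SE, adjusted p = 0.0125) and the pseudouridine synthase gene Rpusd4 (-0.27 ± 0.06 SE, adjusted p = 0.0181). Mettl17 measured -0.06, -0.08, -0.10, -0.11 and -0.05 in Old hearts, against 0.09, 0.16, 0.23, 0.13 and 0.04 in Young hearts. The groups did not overlap in any of these 3 genes. By its probe set of largest variance alone Mettl17 gave -0.48 (adjusted p = 0.00251). The mean of its probe sets was -0.21, so they differed in size. Of 14 translation factors and related genes, 2 fell, 0 rose and 11 had lower means (median -0.18). Mrrf, the ribosome recycling factor, fell by 0.29 (± 0.06 SE, adjusted p = 0.0124). So did Oxa1l, which inserts the newly made proteins into the inner membrane, by 0.29 (± 0.06 SE, adjusted p = 0.0130). Mrrf measured -0.14, -0.39, -0.07, -0.21 and -0.13 in Old hearts, against 0.21, 0.11, 0.12, 0.01 and 0.06 in Young hearts. Oxa1l measured -0.08, -0.34, -0.05, -0.16 and -0.07 in Old hearts, against 0.05, 0.28, 0.11, 0.19 and 0.16 in Young hearts. Neither gene overlapped between the ages. The elongation factor gene Tufm (-0.12 ± 0.05 SE, adjusted p = 0.161) and the mRNA-binding protein gene Lrpprc (-0.16 ± 0.08 SE, adjusted p = 0.200) did not pass, though Lrpprc passed without Old replicate 2 (-0.22, adjusted p = 0.0457). Of 10 genes of mitochondrial RNA synthesis 1 fell, Hsd17b10 of the tRNA-processing enzyme (-0.27 ± 0.08 SE, adjusted p = 0.0446), named after its value was seen, and 9 had lower means. Neither the polymerase gene Polrmt (-0.19 ± 0.09 SE, adjusted p = 0.175) nor the DNA-packaging factor gene Tfam (-0.14 ± 0.06 SE, adjusted p = 0.122) passed. Calls were lost for Ptcd3 without any array other than Old replicates 2 and 4 (adjusted p = 0.0541 to 0.101), for Mtg2 without Old replicate 4 or 6 or Young replicate 1 or 2 (0.0534 to 0.0650) and for Hsd17b10 without Old replicate 3, 4, 5 or 6 or Young replicate 1, 2, 3 or 6 (0.0622 to 0.107).

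Markers of cell types differed between the ages over the same arrays, beside 5.09% of all genes that fell and 6.77% that rose. Of 6 cardiomyocyte markers 2 fell (Myh6 and Ryr2), with mean values of -0.35 to -0.03 in Old hearts and 0.08 to 0.24 in Young hearts, lowest in Old replicate 3. Myh6 (-1.24) and Ryr2 (-0.55) carried this mean, the other 4 markers differed by -0.12 to -0.04, and the median of the list was -0.11. Of 8 fibroblast markers 5 rose, with means of 0.07 to 0.61 in Old hearts and -0.55 to -0.0091 in Young hearts. Their differences ranged from 0.05 in Col1a1 to 2.26 in Postn. Among 8 macrophage markers 4 rose (0.03 to 1.04 in Old hearts and -0.51 to -0.02 in Young hearts), as did 1 of 8 T and NK lymphocyte markers, Gzma (0.07 to 0.72 in Old hearts and -0.28 to -0.01 in Young hearts), and 2 of 5 endothelial markers (0.0027 to 0.31 in Old hearts and -0.14 to -0.02 in Young hearts). The endothelial markers that rose were Vwf (0.94) and Tek (0.35). Pecam1 (0.19) did not pass, and Kdr (-0.03) and Tie1 (-0.02) had slightly lower means in Old hearts. The lymphocyte markers were highest in Old replicates 3 (0.72) and 6 (0.44), where the 73 genes averaged -0.21 and -0.09. In Old replicates 2, 4 and 5 the lymphocyte means were 0.10, 0.07 and 0.17, and the 73 genes averaged 0.08, -0.08 and -0.05. A relation between these means was not tested. In Old replicate 3 the lymphocyte mean was carried by Gzma (3.38), Nkg7 (1.87) and Cd8a (0.85). On that array Cd2 (0.29) and Cd5 (0.13) were also above 0, while Cd3e (-0.22), Cd3g (-0.46) and Cd3d (-0.07) were below 0. Without Old replicates 3 and 6 together, 6 of the 73 genes fell (Mrpl2, Mrpl4, Mrpl40, Mrps5, Mrps31 and Mrps35). The share of all genes that fell was then 2.50%, against 5.09% on all arrays. The values are centred, so which markers were at 0 cannot be read from them, and the part of cell makeup in the lower values was not tested.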

How the data were processed

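Values are the authors' deposited log2 values for 31042 probe sets on 10 arrays. The log base was inferred from their numerical step, and each probe set was centred on its median (tolerance 1e-06), per the values themselves. Per the labels' protocols, RNA was extracted with TRIzol, purified on a column, amplified over a repeated synthesis and labelled with biotin. Which software and normalization the authors used is not given in the sources used here, so their effect is unknown. Genes were assigned from the platform annotation, with symbols updated by gene ID through RefSeq (GRCr8), and all 73 members matched. Probe sets with several genes were left out.

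Old and Young arrays were compared with limma 3.58.1 (lmFit, eBayes) in R 4.3.3 over 14217 genes, with no covariate and Benjamini-Hochberg adjustment at 0.05, after tests on simulated data. Tables and plots were made in Python 3.11.15 (pandas 2.3.3, numpy 2.4.6, matplotlib 3.10.9). Groups came from the sample titles. Labels do not state outright that each array is a separate animal, so p-values cover only the spread between these samples, which may be technical, and the number of arrays limits the precision. Members and lists were chosen with earlier results of these data known. Named genes were all members that passed, the 5 highest differences, Mrps18a, Mrps18b, Mrps18c, Mrps30, Mrpl10 and Mrpl12, and, of the assembly and translation lists, those that passed with Tfam, Polrmt, Tufm and Lrpprc. Mrps36 is now named Kgd4 and is no member, and Mrpl11 is not analysed here. Alternatives were other normalizations, probe set summaries, weights, filters, a replicate block and leaving out arrays.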

Additional observations from a re-analysis of the deposited data

Results flagged for a closer look

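In 8 of 76 groups of 5 arrays, 1 array stood apart from the others by Dixon's criterion (gap over range above 0.71), which chance gives in about 1 in 20 groups. That rate holds for independent groups. These share the same arrays and their genes vary together, so the count cannot be read against it. Old replicate 3 was the lowest Old array by such a gap in Mrpl4 (-0.50, next -0.20), Mrps18b (-0.30, next -0.05), Mrps30 (-0.47, next -0.12) and Polrmt (-0.51, next -0.12). Old replicate 2 was the highest in Mrpl45 (0.0230, next -0.30) and Lrpprc (0.15, next -0.09). Old replicate 4 was the lowest in Mrpl38 (-0.28, next -0.07). Young replicate 1 was the highest in Mrpl36 (0.16, next -0.07). Of these genes, Mrpl4, Mrpl38 and Mrpl45 fell. Without Old replicate 3 Mrpl4 still passed, as did Mrpl45 without Old replicate 2 and Mrpl38 without Old replicate 4.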

How the results depend on the processing

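The number of genes that fell, 15, was between 14 and 18 under quantile normalization, centred arrays, other probe set summaries, a filter on dim probe sets, array weights and a robust variance prior, and 0 rose under any of these. With 1 array left out in turn, 8 to 23 fell (5 to 16 Mrpl genes and 3 to 7 Mrps genes), 0 to 2 rose, and 26 to 34 cytosolic genes rose. Of all genes, 2.86% to 6.61% fell with 1 array left out. The median difference was then -0.16 to -0.09 for Mrpl genes and -0.12 to -0.08 for Mrps genes. Without Old replicates 3 and 6 together, 6 fell (3 Mrpl and 3 Mrps) and 21 cytosolic genes rose, with medians of -0.06 for Mrpl genes and -0.08 for Mrps genes. The share of all genes that fell was then 2.50%, against 5.09%. The differences were then also closer to 0 in Mrpl12 (-0.18), Mrps30 (-0.15), Mrps18b (-0.09), Polrmt (-0.09) and Tufm (-0.07). Mrps18a, Mrps18c and Mrpl10, which lie near 0, changed sign under some settings without passing. A replicate block on the 8 arrays with shared numbers gave 6 (4 Mrpl and 2 Mrps), and the same 8 arrays without it, a setting chosen after seeing the data as were all those for the cytosolic genes, gave 6 (3 Mrpl and 3 Mrps). The share of all genes that fell was 2.45% with the block and 2.34% without it, against 5.09% on all arrays. The replicate numbers are not taken as pairs: same-numbered arrays correlated by 0.03, 0.05, 0.15 and 0.04 after group means were removed, and 1 of 4 Old arrays correlated best with its own number. Of 720 values of named genes under alternatives, 105 lost and 3 gained the call and 0 changed sign with a call, and the cause was not tested. A setting for probe sets of several genes was not run because 0 of them name a member. Signal over background is unknown, so 10 arrays of centred values limit what small differences can show.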

Other observations

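Genes next to the 73 on the chromosome were examined as a group of their own, by order in the RefSeq annotation of GRCr8. Of 121 measured protein-coding neighbours 9 fell in Old hearts (7.44%, against 5.09% of all genes) and 6 rose (6.77% of all genes rose). Of the 23 neighbours of genes that fell, 6 fell as well, against 3 of the 98 neighbours of genes that did not pass, and these shares were not tested against each other. They were Immt (-0.54 ± 0.09 SE, limma adjusted p = 0.00409), which encodes a protein that shapes the cristae of the inner membrane, and Reep1 (-0.74), both beside Mrpl35. Atp5pd (-0.23), a subunit of ATP synthase, lies beside Mrpl58, and Slc25a15 (-0.34), the ornithine carrier of mitochondria, lies beside Mrps31. Klc4 (-0.28), a kinesin light chain, lies beside Mrpl2, and Ptcd2 (-0.27), a mitochondrial RNA-binding protein, beside Mrps27. Other neighbours of genes that fell rose: Icam1 (0.44, limma adjusted p = 0.00444) beside Mrpl4 and Map1b (0.28, adjusted p = 0.0143) beside Mrps27.

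Pairs of a member and a neighbour that run in opposite directions were counted where their starts lay within 1000 bases. There were 13 such pairs, with starts 50 to 996 bases apart, and pairs further apart were left out. In 2 of these pairs both genes fell: Mrps27 and Ptcd2, with starts 91 bases apart, and Mrpl2 and Klc4, 528 bases apart. In 1 pair the member alone fell, Mrpl40 (-0.30), while Hira, 186 bases away, gave 0.02 (adjusted p = 0.882). In the other 10 neither gene passed, among them Mrpl46 (-0.23) and Mrps11 (-0.12), a pair of members with starts 234 bases apart. These genes were chosen after their values were seen.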
